A study of Mus musculus with 20 samples.

Results

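Protein synthesis needs a set of translation initiation and elongation factors, and their mRNAs were followed here through bone-metastatic prostate cancer (PC) cells that were naive to the anti-androgen enzalutamide, resistant to it, or taken from mice depleted of macrophages. The genes are those whose mouse symbol begins with Eif1, Eif2, Eif3, Eif4, Eif5, Eif6, Eef1 or Eef2 and whose mean level over the naive and resistant libraries was at least 1 FPKM (a fragment count divided by the length of the transcript and by the size of the library). Of 70 listed genes with such symbols 61 reached that level, and 17104 genes were listed in all. The rule holds the factors and regulators that carry their names, among them eIF2α kinases, eEF2 kinase, eIF4E-binding proteins and methyltransferases of eEF1A or eEF2. The rule goes by name, so it also takes in genes with other roles, such as Eef1e1, a scaffold of the aminoacyl-tRNA synthetase complex. It used the level in naive and resistant libraries and not the change, so genes reaching that level only in libraries from depleted mice were left out. All 61 passed the filter on low values in each comparison below.

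The cells were MycCaP-Bo, a line derived from MycCaP cells (from a Myc-driven mouse prostate tumor) by repeated passage through bone in FVB/N males, labeled with luciferase and the near-infrared protein iRFP, and therefore a single selected cell population. They were injected into the heart of mice aged 4 to 6 weeks 7 days before treatment began, and were recovered from the bone as CD45- iRFP+ cells. Naive cells came from mice given vehicle. Resist cells came from mice gavaged daily with 30 mg/kg enzalutamide for 18 days. Resist-Mac cells came from mice on the same enzalutamide course that also received clodronate liposomes, which deplete phagocytic macrophages, at 1 mg per mouse in the last 4 days. Naive-Mac cells came from mice given vehicle and clodronate liposomes over 4 days. Every group had 5 libraries, each pooled from 3 mice. Naive and Resist libraries share batch 1 in the labels, whereas Resist-Mac is batch 2 and Naive-Mac is batch 3. In both comparisons with depleted mice, batch and depletion therefore cannot be told apart.

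Initiation begins when eIF2, bound to GTP, brings the initiator tRNA to the small ribosomal subunit together with eIF1, eIF1A, eIF3 and eIF5. The cap-binding complex eIF4F, made of eIF4E, the scaffold eIF4G and the helicase eIF4A, loads the mRNA, and eIF4E-binding proteins block it until the kinase mTOR phosphorylates them. eIF2B recharges eIF2 with GTP, and the eIF2α kinases stop that step under stress. eEF1A then delivers aminoacyl-tRNA, the eEF1B subunits recharge eEF1A, and eEF2 moves the ribosome on until eEF2 kinase switches it off. In PC, Myc and mTOR signaling are known to act on this machinery.

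Beyond these genes, the libraries differed between tables. The FPKM of all listed genes summed to 481161 to 530961 in batch 1, 617494 to 761510 in Resist-Mac and 882276 to 1040440 in Naive-Mac libraries. Among prostate tumor markers, Krt8, Foxa1, Myc and Hoxb13 had a mean of at least 1 FPKM in every group. Their means differed between groups. Myc had 162 FPKM in Naive, 169 in Resist, 139 in Resist-Mac and 7.89 in Naive-Mac cells. Between Naive and Naive-Mac the mean of Foxa1 went from 87.5 to 48.3, Krt8 from 317 to 196 and Hoxb13 from 2.66 to 5.82. The epithelial genes Krt18 and Cdh1 stayed under 1 FPKM in every group and were listed at 0 in all Naive-Mac libraries, and Epcam was listed in the Naive-Mac table only, at a mean of 0.01. Macrophage markers summed to at most 17.1 FPKM in any library over 10 genes, endothelial markers to at most 3.16 over 5 and osteoblast and stromal markers to at most 32.7 over 8. Summed neutrophil markers, led by S100a8 and S100a9, covered 170 to 1226 FPKM in Naive, 59.9 to 579.6 in Resist, 391 to 8479 in Resist-Mac and 58.6 to 6027 in Naive-Mac libraries. Erythroid markers, almost all Hba-a1, ran from 53.9 in the lowest Naive to 954 FPKM in the highest Naive-Mac library. The part of these marker differences in the results below was not tested.

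Many mRNAs of the translation machinery start with a C followed by a run of pyrimidines, the 5′ terminal oligopyrimidine tract through which mTOR controls their translation, so the start sites of the genes were read from RefSeq (GRCm38.p6). Of the 61 genes 49 had an annotated start there. A C at the annotated first base with C or T at each of the next 4 bases, searched on the transcribed strand alone, was found in 2 of the 49 genes, Eif3f and Eif2s3x, or 4.08%, against 3.01% of all 27025 genes with a start. A longer run, a C with C or T at each of the next 7 bases, within 20 bases of the start was found in 10 genes, or 20.4%, against 14.5% of all genes. The windows of 30 bases below show both genes with a run at the start, the most abundant member Eef1a1, and Eif2b2, the member with the lowest log2 change in resistant cells. Capitals mark the run.
Eif3f: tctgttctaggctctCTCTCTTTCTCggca
Eif2s3x: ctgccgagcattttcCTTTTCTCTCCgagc
Eef1a1: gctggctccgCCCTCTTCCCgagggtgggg
Eif2b2: tttcaccgagcggaagttgaCCTCTCTCgg
The windows lie at chr7:108934400-108934429 (plus strand), chrX:94212637-94212666 (minus strand), chr9:78481710-78481739 (minus strand) and chr12:85219466-85219495 (plus strand). In Eef1a1 the run began 5 bases before the annotated start and in Eif2b2 at base 6 after it. A match is a description of the letters and not of a functional element.

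The mRNA of the tRNA-delivering factor Eef1a1 was the most abundant of all listed genes. It alone held 1.82% ± 0.0625 (SD, n = 5) of the summed FPKM of listed genes in Naive libraries, and all 61 genes together held 3.85% ± 0.0838. The translocation factor Eef2 ranked 26 among all genes by mean FPKM over Naive and Resist libraries, with 2115 FPKM, and Eef1g, an eEF1B subunit, ranked 65. Initiation factors were lower. The 13 eIF3 subunits ran from 53.4 (Eif3j2) to 268 FPKM (Eif3h), the 10 eIF4 genes from 31.1 (Eif4g3) to 269 (Eif4a1), and the 5 eIF2 genes from 30.9 (Eif2d) to 94.2 (Eif2s1). The kinase and eIF4E-binding genes ran from 5.41 for Eif2ak2, the double-stranded RNA sensor, to 217 for Eif4ebp1. FPKM is a value per transcript length, which allows these levels to be compared between genes.

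Several factors exist as paralog pairs, and in each pair 1 copy dominated. Eef1a2, the muscle and neuron form of eEF1A, was listed at 0 in all Naive and Resist libraries, reached at most 0.04 FPKM in Resist-Mac libraries and was not listed for Naive-Mac. Eif5a2 had 1.45 ± 0.229 FPKM in Naive libraries against 529 ± 16.9 for Eif5a, the factor that carries the amino acid hypusine. The X-linked eIF2γ gene Eif2s3x had 89.3 ± 3.42 FPKM, whereas its Y-linked copy Eif2s3y had a mean of 0.144, below the level for membership. The ratio of the helicase gene Eif4a1 to Eif4a2 was 2.98 to 3.48 in Naive, 2.17 to 3.82 in Resist, 2.94 to 8.296 in Resist-Mac and 5.49 to 7.12 in Naive-Mac libraries. The other genes left out by level were Eif3j1, Eif4e3, Eif4ebp3, Eef1akmt3 and Eif4a3l1. Of these, Eif4ebp3 had 2.24 to 3.13 FPKM in Resist-Mac libraries but at most 0.25 in Resist and 1.19 in Naive-Mac libraries. The eEF1A methyltransferase gene Eef1akmt4 and its readthrough gene Eef1akmt4-ece2 were left out because they were listed in the Resist-Mac table only, Eef1akmt4 at 41.3 to 51.01 FPKM.

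**Figure D1:**
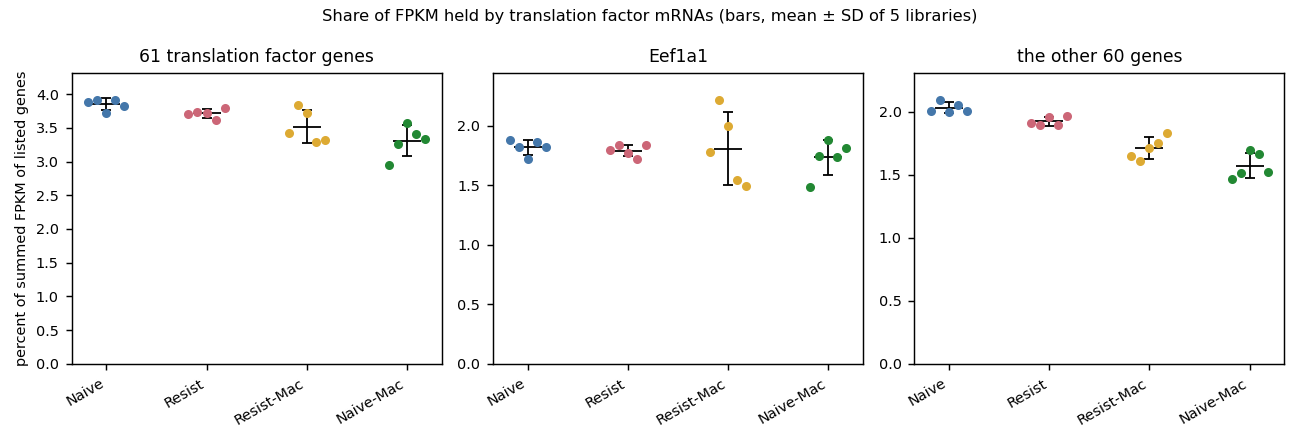
Percent of the summed FPKM of listed genes (vertical axes, from 0) held by the 61 translation factor genes, by Eef1a1 and by the other 60 genes in each of 20 libraries; bars give the mean ± SD of 5 libraries. The 61 genes held 3.72 to 3.92% in Naive and 2.95 to 3.58% in Naive-Mac libraries, and Eef1a1 spread most among Resist-Mac libraries (1.49 to 2.22%).

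The plot of these shares shows that Naive-Mac libraries had more FPKM in the 61 genes than Naive libraries but a smaller share of the total. The summed FPKM was 18955 to 20655 in Naive and 30518 to 31686 in Naive-Mac libraries, without overlap, while the share held by the 60 genes other than Eef1a1 was 1.998 to 2.095% in Naive and 1.47 to 1.697% in Naive-Mac libraries. In Resist-Mac libraries that share was 1.61 to 1.83%, below all Resist libraries at 1.89 to 1.96%. The tables list different numbers of genes, which enters these shares.

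The first comparison set Resist against Naive cells within batch 1. Resist cells came from mice still on enzalutamide, so resistance and exposure to the drug cannot be told apart. None of the 61 genes passed both an adjusted p under 0.05 and a 1.5-fold change between Resist and Naive cells, by limma on log2(FPKM + 1) adjusted over all 10119 genes tested. At an adjusted p under 0.05 alone, 11 genes were lower and 1 was higher in Resist cells, all short of 1.5-fold. The lower ones were Eif1b, the eIF2 subunits Eif2s1 and Eif2s2, the eIF2B subunit Eif2b2, the eIF3 subunits Eif3i and Eif3l, Eif4a3, Eif5a, Eif6, Eef1g and the eIF4E-binding gene Eif4ebp1. The higher one was Eif2ak4, which encodes the amino acid sensor GCN2. Of all genes tested, 5.25% were higher and 1.11% lower in Resist by both criteria, and 12.5% were higher and 6.40% lower by adjusted p alone. The corresponding shares of the 61 genes were 1.64% higher and 18.03% lower by adjusted p alone. At an unadjusted p under 0.05, 26 of the 61 genes were lower and 2 higher, beside 1338 lower and 2158 higher of all 10119 genes. The number at an adjusted p under 0.05 in the lower direction was 19 without Resist replicate 5, and 7 without either Resist replicate 4 or Naive replicate 1. In pooled cells, fewer expressing cells and less RNA per cell cannot be told apart.

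By direction alone, 49 of the 61 genes had a log2 change below 0, with a median of -0.087 against 0.033 for all genes, and 43 of 61 were below 0 after quantile normalization, 53 after median-ratio scaling and 48 after each gene's change was corrected for transcript length and GC content. All 5 genes of the eIF1 and eIF1A role, which includes Eif1ad, were below 0 under each of these scalings. So were all 5 genes of the eIF2 role, the subunit genes Eif2s1, Eif2s2 and Eif2s3x with Eif2a and Eif2d grouped beside them. All 13 eIF3 subunits were below 0, though 8 of 13 after quantile normalization and 11 after the length and GC correction, with a range from -0.30 (Eif3i) to -0.037 (Eif3f). The 5 eEF1 genes were below 0, 4 of 5 after quantile normalization, and the 5 eIF2B subunits likewise. In the methyltransferase role 3 of 4 genes were above 0, with a median of 0.07 (2 of 4 after median-ratio scaling or quantile normalization, 4 after the length and GC correction). The 8 kinase and eIF4E-binding genes had 6 above 0 and a median of 0.043, but 3 of 8 were above 0 after median-ratio scaling or quantile normalization and 4 after the length and GC correction. Groups did not overlap for 10 of 61 genes (16.4%), all lower in Resist. Of all 10119 genes, 439 were lower and 855 higher without overlap, or 12.8% in either direction.

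**Figure D2:**
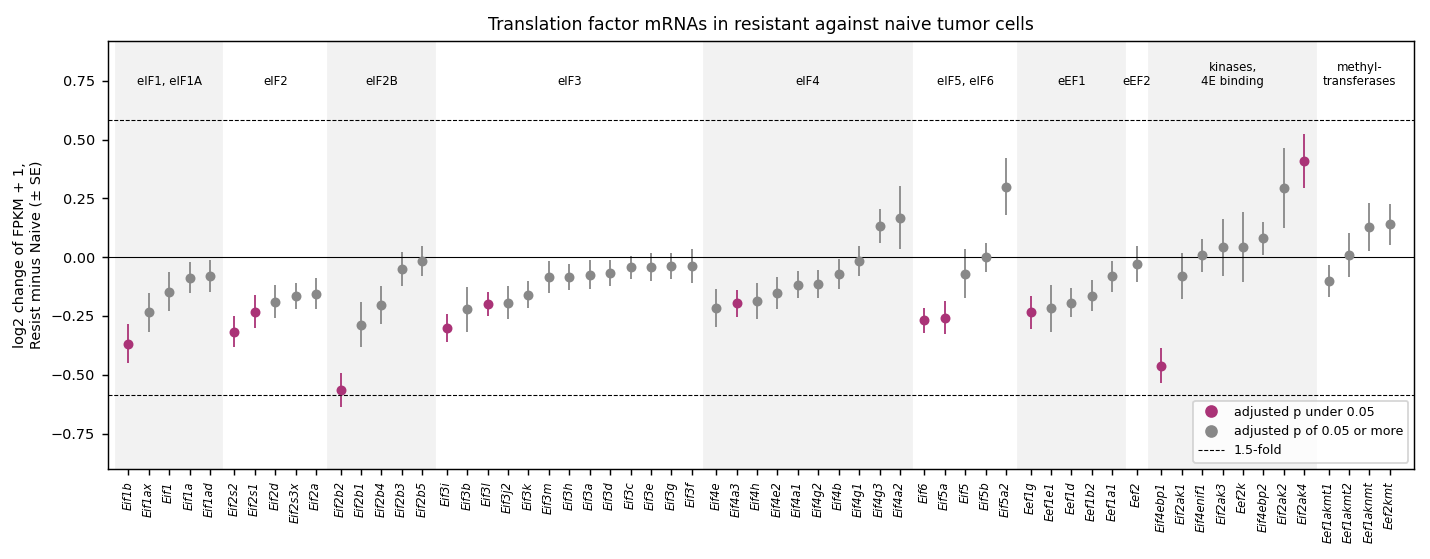
Log2 change of FPKM + 1, Resist minus Naive, with its SE for the 61 genes, ordered by role and then by size (n = 5 libraries per group); dashed lines mark 1.5-fold, and purple points have an adjusted p under 0.05. Eif2b2 (-0.56) and Eif4ebp1 (-0.46) have the lowest values and Eif2ak4 (0.41) the highest; after quantile normalization 43 rather than 49 genes lie below 0.

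Eif2b2, the β subunit of the guanine nucleotide exchange factor eIF2B, came closest to a call. Its 5 Naive libraries had 167, 167, 151, 183 and 157 FPKM and its 5 Resist libraries 109, 107, 109, 103 and 128. No Resist library reached the lowest Naive library, and the log2 change was -0.56 ± 0.072 (SE; adjusted p = 0.000462, limma). It passed 1.5-fold after median-ratio scaling (-0.62) and when Naive replicate 3 or Resist replicate 5 was left out. The other eIF2B subunits ran from -0.29 (Eif2b1) to -0.016 for Eif2b5, the catalytic subunit, whose groups overlapped (51.4 to 59.5 against 50.6 to 57.5 FPKM; adjusted p = 0.883). Eif2b2 and the other genes at an adjusted p under 0.05 were singled out after their values were seen. Over 19 alternatives that leave out a library or change a setting, Eif2b2, Eif4ebp1, Eif6 and Eif1b had an adjusted p under 0.05 in all, Eif2s2 and Eif3i in 18, Eif3l in 16, Eif5a in 15, Eif2s1 in 9, and Eef1g and Eif4a3 in 7.

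Eif4ebp1, the repressor of eIF4E that mTOR releases, had 244, 272, 215, 258 and 272 FPKM in Naive and 179, 191, 171, 172 and 199 in Resist libraries. The groups did not overlap, and the log2 change was -0.46 ± 0.075 (SE; adjusted p = 0.00184, limma). The second repressor gene, Eif4ebp2, overlapped between groups with a log2 change of 0.081 ± 0.07 (adjusted p = 0.436). Their target Eif4e had 33.9 to 39.1 FPKM in Naive and 27.8 to 37.4 in Resist libraries, and the highest value in Resist, replicate 5, lay within the Naive range (-0.22 ± 0.081; adjusted p = 0.084). The scaffold Eif4g1 (-0.017 ± 0.062; adjusted p = 0.878) and the helicase Eif4a1 (-0.12 ± 0.058; adjusted p = 0.176) did not pass the test, and Eif4g1 was above 0 after quantile normalization.

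Among the eIF2α kinases, Eif2ak4 had 12.9, 13.7, 15.3, 13.99 and 16.6 FPKM in Naive and 15.1, 20.01, 21.3, 24.5 and 17.99 in Resist libraries. A single Resist library lay within the Naive range, and the log2 change was 0.41 ± 0.11 (SE; adjusted p = 0.0276, limma). Over the same 19 alternatives its adjusted p was under 0.05 in 12, with the highest value, 0.0712, without Naive replicate 1, and it was also 0.05 or more without Naive replicate 2 or 4 or Resist replicate 3 or 4. Eif2ak3, the endoplasmic reticulum stress sensor PERK, overlapped fully (6.81 to 11.1 against 7.06 to 9.47 FPKM; adjusted p = 0.838). Eif2s1, the eIF2α subunit that these kinases phosphorylate, had 115, 94.9, 104, 104 and 91.98 FPKM in Naive and 81.8, 89.6, 82.9, 84.5 and 93.9 in Resist libraries, with 1 Resist library inside the Naive range (-0.23 ± 0.07; adjusted p = 0.0377). Its partner Eif2s2 was lower without overlap, at 52.98 to 65.6 against 67.7 to 74.03 FPKM (-0.32 ± 0.065; adjusted p = 0.00619).

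The hypusine factor Eif5a had 554, 533, 514, 513 and 533 FPKM in Naive and 446, 388, 457, 424 and 505 in Resist libraries, all Resist values being lower (-0.26 ± 0.069; adjusted p = 0.0233). Eif6, which keeps free large ribosomal subunits from joining, was lower without overlap as well (130 to 148 against 162 to 175 FPKM; -0.27 ± 0.054, adjusted p = 0.00594). The start codon factor Eif1 (-0.15 ± 0.082; adjusted p = 0.228) did not pass, whereas its paralog Eif1b did at a low level (13.5 to 15.99 against 16.2 to 22.1 FPKM; adjusted p = 0.0109).

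The eIF3 subunit genes Eif3a and Eif3e and the main elongation factors differed by less than the test could resolve. Eif3a had 186 to 225 FPKM in Naive and 178 to 198 in Resist libraries (-0.074 ± 0.062; adjusted p = 0.42), and Eif3e 135 to 159 and 133 to 151 (-0.042 ± 0.058; adjusted p = 0.645). Eef1a1 had 9999, 9356, 8769, 9643 and 9474 FPKM in Naive and 9159, 9131, 8655, 8284 and 9401 in Resist libraries, overlapping groups with a log2 change of -0.082 ± 0.067 (adjusted p = 0.407). Eef2 (-0.03 ± 0.076; adjusted p = 0.811) and its kinase Eef2k (0.044 ± 0.15; adjusted p = 0.861) overlapped too. The coefficient of variation behind these values had a median of 6.57% over the 61 genes in Naive and 6.93% in Resist libraries.

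**Figure D3:**
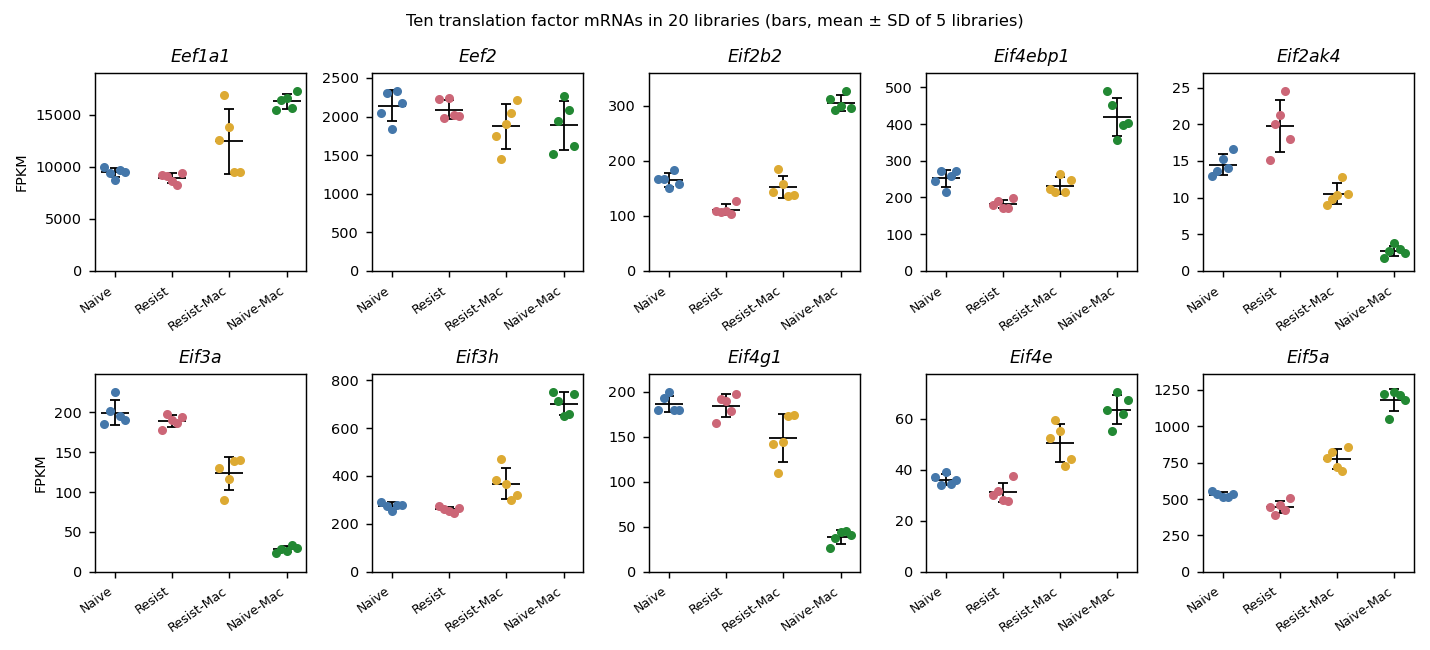
FPKM (vertical axes, from 0) of 10 translation factor genes in each of 20 libraries; bars give the mean ± SD of 5 libraries per group. Eif2b2 and Eif4ebp1 are lower in every Resist than in every Naive library, and Eif3a and Eif4g1 are far lower in Naive-Mac libraries (23.2 to 33.6 and 26.7 to 45.4 FPKM) while Eif3h, Eif4e and Eif5a are higher there.

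Genes that act on these factors were read against the same shares of all genes. Of 16 mTOR signaling genes, 2 were higher in Resist and none lower by both criteria (12.5% higher, against 5.25% of all genes), with a median log2 change of 0.087. They were Pdcd4, an inhibitor of eIF4A (0.63 ± 0.11; adjusted p = 0.00351; 8.11 to 8.69 FPKM in Naive and 9.90 to 16.1 in Resist), and Deptor, an inhibitor of mTOR, whose groups overlapped (0.73 ± 0.16; adjusted p = 0.00815). Neither was called after quantile normalization. Of 13 genes of the integrated stress response, the program downstream of eIF2α phosphorylation, 1 was lower, the glutathione-degrading enzyme Chac1 (-0.62 ± 0.20; adjusted p = 0.0478), whose groups overlapped and which was called in 7 of 18 alternatives. Atf4, the transcription factor of that program, had 125 ± 16.2 FPKM in Naive and 123 ± 10.7 in Resist libraries (SD, n = 5). Of 21 other translation genes (poly(A)-binding proteins, release factors, and the enzymes that make hypusine and diphthamide) none was called, and 5 were lower at an adjusted p under 0.05 alone (23.8%, against 6.40% of all genes), among them Dohh, which completes hypusine on eIF5A (-0.27), and the release factor gene Etf1 (-0.23).

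The second comparison set Resist cells against Resist-Mac cells. By both criteria 5 genes were higher and 12 lower in Resist than in Resist-Mac, 8.197% and 19.7% of the 61, against 9.71% and 12.0% of all 10049 genes tested. The higher genes were the kinase genes Eif2ak4 and Eif2ak2, the repressor Eif4ebp2, the eIF3 core subunit Eif3a and the scaffold Eif4g3. The lower genes were Eef2kmt, Eif2s2, Eef1akmt1, Eif5a, Eif1b, Eif3i, Eif4e, Eif3m, Eif1ax, Eef1e1, Eef1b2 and Eif4a3. The median log2 change was -0.35 against -0.021 for all genes, but -0.019 after quantile normalization, which called 8 higher and 3 lower. By adjusted p alone 8 were higher and 38 lower, against 19.1% and 24.6% of all genes. Groups did not overlap for 36 of 61 genes (59.02%, against 29.7% of all genes). Without Resist-Mac replicate 2 the calls were 2 higher and 8 lower, and Eif3a, Eif4g3, Eif4ebp2, Eef1b2, Eef1e1, Eif1ax and Eif3m were no longer called.

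The genes higher in Resist than in Resist-Mac were led by Eif2ak4. It had 9.0, 9.79, 10.4, 12.9 and 10.5 FPKM in Resist-Mac libraries, all below the Resist libraries given above (0.84 ± 0.13; adjusted p = 0.000417, limma). Eif4ebp2 had 91.5, 87.4, 87.7, 95.2 and 79.3 FPKM in Resist and 47.2, 35.6, 50.5, 68.7 and 77.3 in Resist-Mac libraries, without overlap (0.70 ± 0.17; adjusted p = 0.00648). Eif3a had 178, 198, 189.8, 187 and 193 FPKM in Resist and 131, 89.9, 117, 139 and 140 in Resist-Mac libraries, also without overlap (0.63 ± 0.12; adjusted p = 0.00114). Eif4g3 was higher in Resist by 0.62 ± 0.12 (adjusted p = 0.00135), and the length and GC correction brought that difference to 0.0062. Of the 5 genes Eif2ak2, whose groups overlapped, was the only 1 still called after that correction (0.76 ± 0.22; adjusted p = 0.0132).

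Of the genes lower in Resist than in Resist-Mac, Eef2kmt, the methyltransferase of eEF2, had the largest difference. It had 9.49, 10.6, 10.7, 9.29 and 11.4 FPKM in Resist and 20.2, 28.5, 17.4, 20.7 and 23.9 in Resist-Mac libraries (-1.02 ± 0.12; adjusted p = 8.26e-05, limma). Eif2s2 had 55.4, 55.04, 55.1, 52.98 and 65.6 FPKM in Resist and 105, 126, 105, 83.98 and 90.3 in Resist-Mac libraries (-0.82 ± 0.11; adjusted p = 0.000163). Both genes kept their call under the length and GC correction, as did Eif1ax and Eif4e, and no other of the 12 did. Of these, Eef2kmt alone was also called after quantile normalization, where Eif2s2 had -0.53. Eef1akmt1, a lysine methyltransferase of eEF1A (-0.82 ± 0.10; adjusted p = 8.85e-05), Eif5a (-0.80 ± 0.10; adjusted p = 8.10e-05) and Eif1b (-0.79 ± 0.11; adjusted p = 0.000163) were lower without overlap, and Eif5a did not keep its call after quantile normalization (-0.18).

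Of the main genes, Eif4e was called lower in Resist without overlap (27.8 to 37.4 against 41.5 to 59.4 FPKM). The main genes that were not called differed by less than 1.5-fold on the scale as deposited. Eef1a1 had 12529, 16906, 13817, 9513 and 9486 FPKM in Resist-Mac libraries, where replicates 4 and 5 lay just above the highest Resist library and the other 3 well above it (-0.45 ± 0.17; adjusted p = 0.0452). The labels of replicates 4 and 5 share a code that those of the other 3 lack. Whether that code marks a batch within Resist-Mac is not stated and was not tested. Eef1a1 was the top gene of each of these libraries, and quantile normalization sets the top genes equal. Eef2 overlapped (1975 to 2235 against 1450.5 to 2208 FPKM; adjusted p = 0.264) and so did Eef2k (adjusted p = 0.273), but Eef2 was called higher in Resist after quantile normalization (0.85). Eif1, Eif2s1, Eif2b5, Eif3e, Eif4a1, Eif4ebp1 and Eif6 were lower in Resist without overlap, by log2 changes from -0.53 (Eif4a1) to -0.35 (Eif4ebp1), although Eif1 and Eif4ebp1 were above 0 after quantile normalization. Eif4g1 and Eif2ak3 overlapped, with log2 changes of 0.33 ± 0.12 (adjusted p = 0.0471) and 0.51 ± 0.17 (adjusted p = 0.0266), Eif4g1 turning to -0.089 under the length and GC correction.

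The third comparison, Naive against Naive-Mac cells, showed the largest differences. By both criteria 13 genes were higher and 25 lower in Naive than in Naive-Mac, 21.3% and 40.98% of the 61, against 37.5% and 22.1% of all 9837 genes tested. By adjusted p alone 17 were higher and 38 lower, against 46.8% and 31.3% of all genes, and groups did not overlap for 48 of 61 (78.7%, against 66.0%). The median log2 change was -0.45 against 0.23 for all genes. That median of the 61 genes was -0.77 after median-ratio scaling. It was 0.019 after quantile normalization (all genes -0.078) and 0.030 after the length and GC correction (all genes 0.299). Median-ratio scaling moved the median of all genes to -0.053 and called 13 higher and 34 lower, quantile normalization 19 and 8, and the length and GC correction 15 and 12. A majority of all genes differed between these groups.

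By role, all 5 eEF1 genes were lower in Naive than in Naive-Mac (3 of 5 below 0 after quantile normalization and 4 of 5 after the length and GC correction), and 7 of 8 kinase and eIF4E-binding genes were higher, all but Eif4ebp1 (8 of 8 above 0 after quantile normalization, 7 after the length and GC correction). Among eIF3 subunits 2 were higher and 5 lower, among eIF4 genes 3 and 4, among methyltransferases 0 and 3, among eIF5 and eIF6 genes 1 and 2, and among eIF1, eIF2 and eIF2B genes 0 and 2, 0 and 2, and 0 and 1. The number below 0 was 9 of 13 for eIF3 and 4 of 10 for eIF4 genes, 5 and 3 after quantile normalization, which left no eIF3 subunit called lower, and 7 and 5 after the length and GC correction.

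Eif4g3 and Eif3a had the largest values in the higher direction. Eif4g3 had 28.2, 28.1, 32.2, 30.4 and 29.4 FPKM in Naive and 2.07, 3.98, 2.58, 3.52 and 4.21 in Naive-Mac libraries (2.87 ± 0.14; adjusted p = 1.50e-09, limma). Eif3a had 186, 201, 225, 196 and 190.3 FPKM in Naive and 23.2, 28.3, 26.6, 33.6 and 30.5 in Naive-Mac libraries (2.77 ± 0.10; adjusted p = 9.72e-11). No Naive or Naive-Mac library had a value between 33.6 and 186 FPKM for Eif3a. The subunit-joining GTPase Eif5b (21.0 to 24.97 against 2.22 to 4.23 FPKM; 2.47 ± 0.13), Eif4g1 (179.8 to 199 against 26.7 to 45.4; 2.25 ± 0.12) and Eif2ak4 (12.9 to 16.6 against 1.76 to 3.75; 2.07 ± 0.14) followed, each without overlap and still called under all 3 other scalings. Eif2ak3 (1.69 ± 0.20; adjusted p = 4.88e-06), Eif4ebp2 (1.67 ± 0.26) and Eef2k (1.07 ± 0.12; adjusted p = 1.86e-06) were higher too, but Eef2k had -0.14 after the length and GC correction.

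In the other direction the lowest values belonged to Eef1e1, a scaffold of the aminoacyl-tRNA synthetase complex. It had 57.0, 43.04, 46.4, 49.3 and 47.1 FPKM in Naive and 129, 129, 125, 121 and 137 in Naive-Mac libraries (-1.39 ± 0.082; adjusted p = 5.68e-09, limma). The eIF3 subunit Eif3h had 293, 275, 254, 278 and 279 FPKM in Naive and 749.8, 711, 649, 657 and 743 in Naive-Mac libraries (-1.34 ± 0.068; adjusted p = 1.71e-09). Eif1ax, the X-linked eIF1A gene, differed by -1.33 ± 0.08, Eif3i by -1.27 ± 0.082 and Eef1b2, the exchange factor for eEF1A, by -1.20 ± 0.09, all without overlap. Eef1e1 was called under all 3 other scalings. Eif1ax and Eif3i were not called after quantile normalization, Eif3h and Eef1b2 were called neither after it nor after the length and GC correction.

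Of the main genes, Eif2s1 (-0.999 ± 0.076), Eif2s2 (-0.89 ± 0.11), Eif3e (-0.93 ± 0.071), Eif4e (-0.80 ± 0.083), Eif5a (-1.16 ± 0.064), Eif6 (-0.85 ± 0.079), Eif4a1 (-0.70 ± 0.065) and Eif4ebp1 (-0.73 ± 0.10) were lower in Naive without overlap and called, but Eif4a1 and Eif4ebp1 were above 0 after quantile normalization, and Eif4ebp1 after the length and GC correction too. Of these 8 genes Eif4e alone kept its call under both. Eif5a (-0.15 and -0.27), Eif6 (-0.089 and -0.087), Eif4a1 and Eif4ebp1 were called under neither, and Eif2s1, Eif2s2 and Eif3e were not called after quantile normalization. Eef1a1 had 15441, 16356, 16601, 15628 and 17239.7 FPKM in Naive-Mac libraries, all above the Naive libraries (-0.78 ± 0.064; adjusted p = 1.05e-07), a direction that turned after quantile normalization (0.19) and after the length and GC correction (0.14). Eef2 overlapped (1844 to 2328 against 1517 to 2262 FPKM; 0.19 ± 0.11, adjusted p = 0.128), and the Eef1a1 to Eef2 ratio was 4.06 to 4.88 in Naive and 7.34 to 10.7 in Naive-Mac libraries. After quantile normalization Eef2 was called higher in Naive (1.41), and after median-ratio scaling it was below 0 (-0.13). Eif1 (-0.24 ± 0.088), Eif2b5 (-0.21 ± 0.087), Eif4a2 (0.27 ± 0.10) and Eif5a2 (0.18 ± 0.19) were not called, and the sign of Eif1 turned after quantile normalization and after the length and GC correction. Eef1akmt1 (-0.89 ± 0.13), Eif1b (-0.85 ± 0.12) and Eef2kmt (-0.82 ± 0.12) were lower in Naive, Eef1akmt1 and Eif1b turning above 0 after the length and GC correction.

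In both comparisons with depleted mice the change of a gene went with the length of its transcript, which the plot by length shows. Length here is that of the longest annotated transcript of a gene, which may not be the form expressed. Over the 61 genes, Spearman's rho between transcript length and log2 change was 0.444 for Resist against Naive, 0.611 for Resist against Resist-Mac and 0.626 for Naive against Naive-Mac. Over all genes with a length it was 0.155, 0.642 and 0.709 in 9880, 10027 and 9655 genes. These are correlations across genes of the same libraries and are descriptions only. Of the 30 members with a transcript shorter than the members' median of 2865 bases, 0 were called higher and 18 lower in Naive than in Naive-Mac, and of the 30 longer ones 13 and 7. Between Resist and Resist-Mac the counts were 0 and 9 for shorter and 5 and 3 for longer transcripts. Against the mean of Naive libraries, the rho over all genes was -0.587 to -0.417 in the 5 Resist-Mac libraries, lowest in replicate 2, and -0.713 to -0.655 in the 5 Naive-Mac libraries, against -0.118 to 0.190 in batch 1, each Naive library being set against the other 4. Over the 61 genes alone rho was -0.541 to -0.424 in Resist-Mac, -0.647 to -0.592 in Naive-Mac and -0.451 to 0.441 in batch 1, and Naive replicate 1, the lowest of batch 1, lay within the Resist-Mac range.

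**Figure D4:**
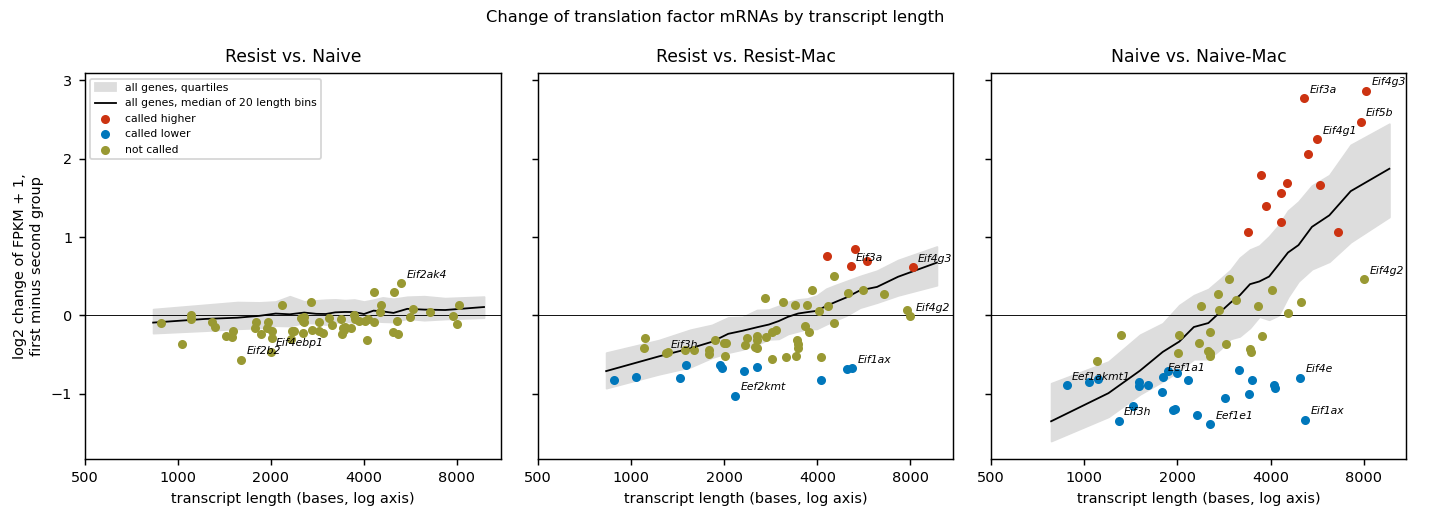
Log2 change of FPKM + 1, first minus second group, against transcript length in bases (log axis) for the 61 genes in 3 comparisons; the line and band give the median and quartiles of all genes in 20 length bins. In the comparison of Naive with Naive-Mac all 13 genes called higher have longest annotated transcripts of at least 3383 bases. Eif1ax and Eif4e are called lower in spite of long annotated transcripts. The length and GC correction leaves 11 of the 13 and 9 of the 25 calls.

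Some genes stood off this trend as drawn with annotated lengths. Eif1ax, with 5172 bases, and Eif4e, with 4991, had the longest annotated transcripts among the genes called lower in Naive than in Naive-Mac. Whether shorter forms of these genes were expressed was not tested. Both kept their calls after the length and GC correction in both comparisons, but Eif1ax lost them after quantile normalization, and Eif4e lost its call against Resist-Mac. Eif3a, Eif4g1, Eif4g3, Eif5b, Eif4b, Eif3c, Eif4enif1 and the 4 eIF2α kinase genes kept their higher call in Naive against Naive-Mac after the correction, and only Eif2ak2 did so in Resist against Resist-Mac. After the correction rho over the 61 genes was 0.262 for Resist against Naive, -0.0064 for Resist against Resist-Mac and 0.0718 for Naive against Naive-Mac.

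The eIF3 complex shows this within 1 assembly, in which the subunits are thought to be present in equal number. The 13 subunit mRNAs had Resist to Naive ratios of mean FPKM between 0.811 (Eif3i) and 0.977 (Eif3f). Naive-Mac to Naive ratios ran from 0.143 for Eif3a, the longest transcript, to 2.55 for Eif3h, the second shortest, and Resist-Mac to Resist ratios from 0.652 (Eif3a) to 1.65 (Eif3i). Eif3e, with 4123 bases the second longest by annotated length, had a Naive-Mac to Naive ratio of 1.91. The ratio of Eif3a to Eif3h within a library was 0.633 to 0.886 in Naive, 0.651 to 0.766 in Resist, 0.191 to 0.465 in Resist-Mac and 0.03098 to 0.0511 in Naive-Mac libraries. In the cap-binding complex, Eif4g1 and Eif4e both have long annotated transcripts (5638 and 4991 bases). The Eif4g1 to Eif4e ratio was 4.86 to 5.68, 5.28 to 6.696, 1.85 to 4.18 and 0.422 to 0.735 in the same order. These ratios need no scaling between libraries, but they are not corrected for transcript length. For both pairs the depleted libraries did not overlap those of batch 1. Eif3a and Eif3h have the lowest and the highest Naive-Mac to Naive ratio of the 13 subunits. Eif4g1 and Eif4e were called in opposite directions between Naive and Naive-Mac. The separation of either pair is therefore a description and not a test.

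**Figure D5:**
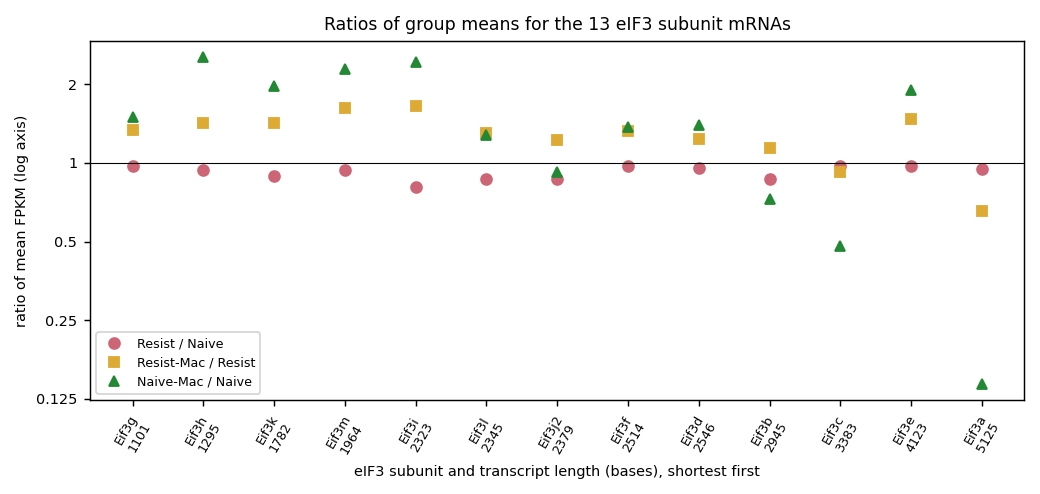
Ratios of mean FPKM (log axis, 5 libraries per group) for the 13 eIF3 subunit genes, ordered by transcript length from Eif3g to Eif3a. Resist to Naive ratios stay between 0.811 and 0.977, while Naive-Mac to Naive ratios spread from 0.143 to 2.55.

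Genes around the translation factors were read against the share of all genes called, which in Naive against Naive-Mac was 37.5% higher and 22.1% lower. Of 16 mTOR signaling genes, 9 were higher and 1 lower in Naive than in Naive-Mac (56.2% and 6.25%; median log2 change 1.09), led by Larp1, which binds terminal oligopyrimidine mRNAs (2.57 ± 0.10; transcript of 6617 bases), and by Mtor (1.99 ± 0.13; 8564 bases). The lower gene was Rheb, the GTPase that activates mTOR (-0.79). In Resist against Resist-Mac 4 were higher, Mtor (0.72), Rictor (0.75), Tsc1 (0.72) and Deptor (0.73), and none lower (25% higher, against 9.71% of all genes). The length and GC correction called 5 higher and 3 lower in Naive, and 0 higher and 1 lower in Resist. Of 13 stress response genes, 5 were higher and 2 lower in Naive (38.5% and 15.4%, 8 and 1 genes after that correction), with Atf4 at 1.13 and the eIF2α phosphatase subunits Ppp1r15a and Ppp1r15b at 2.53 and 1.75, and the serine synthesis genes Psat1 and Phgdh at -1.24 and -0.92. In Resist against Resist-Mac 3 were higher, Nupr1, Ppp1r15a and Ddit3, and 2 lower, again Psat1 (-0.74) and Phgdh (-0.74), or 23.1% and 15.4%, against 9.71% and 12.0% of all genes. Of 21 other translation genes, 5 were higher and 5 lower in Naive (23.8% each, 10 and 1 genes after that correction), with the poly(A)-binding protein gene Pabpc1 at 0.89 and Dohh at -1.04, and 0 and 3 in Resist (0% and 14.3%), with Dohh at -0.81.

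Members with and without the pyrimidine run near their start had similar medians in Resist against Naive, -0.084 over 10 and -0.079 over 39 genes. In Naive against Naive-Mac the medians were -0.62 and -0.24, beside median transcript lengths of 2429.5 and 3405 bases.

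Of the 61 genes 17 have at least 1 processed pseudogene of close sequence in the reference (at least 0.9 identity over 0.8 of the transcript), with 17 each for Eef1a1 and Eif1, so their values can depend on how shared reads were counted. Over the other 44 genes, 5 were lower at an adjusted p under 0.05 in Resist against Naive, beside 6.40% of all genes. Eef1g, Eif2s1, Eif4a3, Eif5a, Eif6 and Eif4ebp1, also lower there, have such pseudogenes. In Resist against Resist-Mac 5 of the 44 were called higher and 8 lower, against 9.71% and 12.0% of all genes. In Naive against Naive-Mac the counts were 11 and 15, against 37.5% and 22.1% of all genes. The difference between the 2 depletion comparisons had an adjusted p under 0.05 for 35 of the 61 genes, 18 above and 17 below 0 (limma over all groups), against 51.9% of all genes, and the 2 depleted groups are separate batches.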

How the data were processed

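RNA of sorted tumor cells from 20 samples was measured by poly-A sequencing with paired ends on the BGISEQ-500. The authors deposited 3 expression tables: FPKM per gene for Resist-Mac and for Naive-Mac, and log2(FPKM + 1) for Naive and Resist, which turned back to FPKM values of 2 decimals for 100% of entries. The submitters' processing notes name Bowtie2 and the genome build mm9, and the quantifier and annotation are not given in the sources used here. Read counts were not used here and depth is known only in relative terms: an FPKM step of 1 fragment in the Naive and Resist libraries was worth 0.785 to 1.26 times that of Naive replicate 1. Identifiers given as unannotated by the sequencing service (752 in the Naive and Resist table, 8.45% of its FPKM) were left out.

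Groups came from the labels. Each comparison used limma 3.58.1 (R 4.3.3) with an intensity trend on log2(FPKM + 1), where the pseudocount understates changes of low genes, over genes in both tables whose FPKM averaged 1 or more across the compared libraries. Benjamini-Hochberg adjustment ran over all genes tested, tests were 2-sided, and a call needed an adjusted p under 0.05 and a change over 1.5-fold. The study's methods use a noise-distribution method, which was run as an alternative with a probability of at least 0.8. The tables were deposited separately, so levels set side by side across them rest on FPKM alone. P-values measure only the spread between pools. The members, gene lists and tests were chosen with earlier results of these data known. Genes given with full values were, in each comparison, the called genes or, where more than 10 were called, the 5 largest in each direction without overlap, plus fixed main genes of each role and paralog pairs. Alternatives changed the pseudocount (0.1), the filter (5 FPKM or none), the scaling (median-ratio or quantile), the trend, the fold criterion, the replicate block, the groups in the fit, or left out 1 library, and 1 corrected each gene for transcript length and GC content with splines of 4 degrees of freedom. The test of the difference between depletion effects with median-ratio scaling was chosen after seeing the data. Transcript lengths and pseudogenes came from GENCODE on GRCm38 and start sites from RefSeq on GRCm38.p6. Neither is mm9, so they were joined by gene and not by position. Length and GC content were those of the longest transcript of each gene. Python 3.11.15, numpy 2.4.6, pandas 2.3.3, scipy 1.17.1 and minimap2 2.31-r1302 were used, and the fits were tested on simulated data. A tumor marker of the list that was checked is not reported here.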

Additional observations from a re-analysis of the deposited data

Results flagged for a closer look

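In 120 groups of 5 libraries (30 genes in 4 groups), 8 held a library far from the other 4 by Dixon's criterion at 95%, where chance alone gives about 6. In Naive-Mac replicate 1, Eef1b2 had 1474.45 FPKM, Eif1 551.1 and Eif2s2 179.73. Eif5a had 1053.44 FPKM in Naive-Mac replicate 2. In Resist replicate 5, Eef1e1 had 52.55 FPKM and Eif2s2 65.56. Eif2ak3 had 11.09 FPKM in Naive replicate 5, and Eif6 had 222.38 in Resist-Mac replicate 5.

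The log2 difference between groups with and without macrophage depletion was not the same in resistant and naive tumors for 18 of the named genes, by limma's test of the difference between both effects (Resist minus Resist-Mac, less Naive minus Naive-Mac) with an adjusted p under 0.05. That is 18 of 30 genes, many of them chosen for large changes in these same comparisons, beside 51.9% of all genes and 35 of the 61, so the share is close to that of all genes. The median of that difference over all genes was -0.28. It was below 0 for Eif5b (-2.41), Eif4g3 (-2.25), Eif3a (-2.14), Eif4g1 (-1.93), Eif2ak4 (-1.22), Eif2ak3 (-1.18), Eif4ebp2 (-0.97) and Eef2k (-0.80). It was above 0 for Eif3h (0.86), Eef1e1 (0.73), Eif1ax (0.66), Eef1b2 (0.57), Eif3i (0.57), Eif2s1 (0.48), Eif6 (0.41), Eif3e (0.39), Eif4ebp1 (0.38) and Eif5a (0.35). With median-ratio scaling 42 of the 61 genes had an adjusted p under 0.05, 31 above and 11 below 0. Resist-Mac and Naive-Mac are separate batches, so batch and tumor state cannot be told apart in this difference.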

How the results depend on the processing

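For Resist against Naive, median-ratio scaling called 1 gene, Eif2b2, and the adjusted p alone gave 12, 1 higher and 11 lower. The 11 became 19 under median-ratio scaling, 6 after quantile normalization and 6 with all 4 groups in one fit. Leaving out 1 library gave 0 to 1 calls, 0 to 1 of them lower, and 7 to 19 genes lower by adjusted p (7 without Resist replicate 4 or Naive replicate 1, 19 without Resist replicate 5). For Resist against Resist-Mac, quantile normalization called 11 genes, 8 higher and 3 lower, the adjusted p alone 46, 8 higher and 38 lower, the length and GC correction 5, 1 higher and 4 lower, and the noise-distribution method 14, of which 2 higher. Leaving out 1 library gave 10 to 20 calls, 2 to 6 of them higher and 8 to 14 lower, lowest without Resist-Mac replicate 2. For Naive against Naive-Mac, quantile normalization called 8 genes lower, the adjusted p alone 38 and the length and GC correction 12. There, 12 of the 61 genes changed sign under quantile normalization and 16 under the length and GC correction, of which 4 and 6 were called. Of the genes given with full values and called in either fit, the sign changed under quantile normalization for Eef1a1 (0.19), Eif1 (0.68), Eif4a1 (0.19) and Eif4ebp1 (0.12), and under the length and GC correction for Eef1a1 (0.14), Eef1akmt1 (0.52), Eef2k (-0.14), Eif1 (0.84), Eif1b (0.35) and Eif4ebp1 (0.030). The other genes called as deposited that did so, named after their values were seen, were Eef1g (0.46 under quantile normalization) and Eef1akmt2, which the length and GC correction called in the opposite direction (0.79). The cause of these changes was not tested. Replicate numbers shared by the groups did not pair the samples (correlations of deviations from -0.27 to 0.36), and a replicate block left the calls at 0, 17 and 38 and took the 11 genes lower by adjusted p to 7. Counts behind the FPKM were not used here, so no counting error could be given for low genes such as Eif5a2.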
